A study of Danio rerio with 7 samples.

Results

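The 30 hpf comparison of the tbx5 morphants consisted of the 2 arrays labelled 30hpf, out of 7 arrays in the series, and all 43663 probes on them were described. Each array compared RNA of whole zebrafish embryos of the AB strain that had received tbx5-MO (Cy5 channel) with RNA of wild-type (WT) control embryos of that strain and stage (Cy3 channel). The other arrays made the same comparison at 24 hpf (2 arrays) and 48 hpf (3 arrays). tbx5-MO is a morpholino, an antisense oligonucleotide against the translation start of tbx5, and was injected at the 1-cell stage. It lowers translation and need not change the level of the tbx5 transcript, the embryos carry no mutation, and each RNA sample was a pool of embryos. The dyes were never swapped, so dye and morpholino cannot be told apart. No source used here states whether the 2 arrays came from separate pools, and p-values then measure only the spread between arrays, which may be technical. In pooled whole embryos, fewer cells of a type and less RNA per cell cannot be told apart.

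Tbx5 is a T-box transcription factor needed for the heart and the forelimb, and in zebrafish for the looping of the heart and for the pectoral fin. At about this stage the zebrafish heart tube begins to loop, the trunk muscle twitches and primitive red cells circulate. At that time the lens lays down crystallins and the nervous system goes on making neurons. Most RNA of a whole embryo comes from tissues other than the heart and the fin buds.

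The value table held log2 ratios of tbx5-MO over WT without gene names. A probe was named where its values matched those of 1 probe in the authors' lists, which hold the probes lower by 1.5-fold or more on all arrays of a stage. This named 3794 genes, of which 2452 were named through the 24 or 48 hpf lists and 1342 through the 30 hpf list alone. The 1342 had been chosen because they were lower on these 2 arrays, so their values are given as a description. A gene higher in the morphants at 30 hpf has a name here only where it was lower at 24 or 48 hpf. tbx5 itself was not named and is not analysed here, so the arrays offered no check of the targeted gene. The standard deviation of the log2 ratios over all probes was 1.17 on replicate 1 and 1.06 on replicate 2, and the medians were 0.00 and -0.03.

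The likeness of the 2 arrays depended on how often a value recurred. Many probes of an array shared exactly the same log2 ratio, as ratios of small whole numbers do, so a value shared by many probes was treated as a sign of a dim spot. Among 4229 probes (9.69%) with a value of their own on each array, called found once here, replicate 1 and replicate 2 correlated at 0.63. The correlation was 0.17 over the 8938 probes whose values were shared by 2 to 10 probes, 0.07 over 15531 probes with values shared by 11 to 50, and 0.02 over 14965 probes with values shared by more than 50. Over all 43663 probes it was 0.10. Probes, over which these correlations run, are no independent replicates, and a rare extreme ratio can be found once on a dim spot as well.

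**Figure D1:**
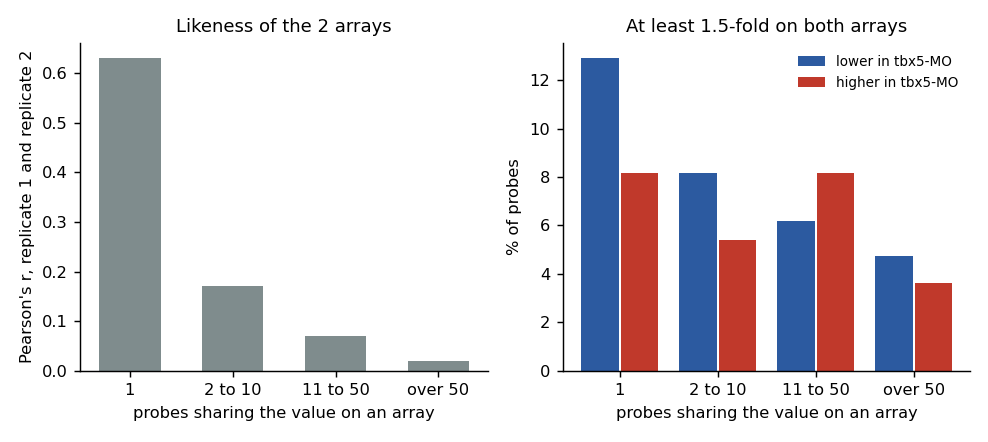
Left, Pearson's r of the log2 ratios of the 2 arrays at 30 hpf, by how many probes share a value on an array (the larger of the 2 arrays). Right, the percent of those probes at least 1.5-fold lower or higher in tbx5-MO embryos on both arrays. The correlation was 0.63 for values found once and 0.02 for values shared by more than 50 probes, and the lower probes outnumbered the higher ones in 3 of the 4 classes.

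At least 1.5-fold on both arrays, 2949 probes (6.75%) were lower and 2638 (6.04%) higher in the morphants. Averaged by gene, 6.31% of the 43179 genes and single probes were lower and 6.05% higher. limma, with 1 mean per stage over all 7 arrays, called 3 of the 43179 at an adjusted p under 0.05 (0.00695%), all higher and none with a name. Their log2 ratios at 30 hpf were 7.20 and 6.30, 7.03 and 6.82, and 5.99 and 6.58, while on the arrays of the other stages the 3 lay between -1.15 and 0.67. The adjusted p was 0.036 for each. These 3 probes rose at 30 hpf and lay near 0 at the other stages, but 2 of them carried values on replicate 2 that 13 or 14 probes shared. Without any 1 array other than 30 hpf replicate 2 there were 0 calls, and without 30 hpf replicate 2 there were 401. At an unadjusted p under 0.05, 1792 features (4.15%) were lower and 1746 (4.04%) higher. No named gene passed the test, so named genes are described below by their values on each array. A second limma fit, chosen after seeing the data, took the 30 hpf arrays alone and the 4064 genes and single probes whose values were found once on both. It called 598 of them (14.7%), 391 lower (9.62%) and 207 higher (5.09%). Over all 43179 features the same 2 arrays alone gave 0 calls by limma, with 2059 features at an unadjusted p under 0.05.

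Several genes of growth arrest and apoptosis were at higher ratios in the morphants on both arrays. Such genes are switched on in cells that meet damage or stress, where they halt the cell cycle or lead to cell death, and in zebrafish some are known to respond to morpholinos apart from their target. mdm2 (chromosome 4), a ubiquitin ligase of the damage response, lay at 2.08 and 1.78 in the mean of its 2 probes, the lower of which gave 1.96 and 1.71. The gene averaged 1.93 ± 0.21 (SD, n = 2), a fold of 3.81. ccng1, cyclin G1, which is induced by DNA damage, lay at 2.47 and 1.49, at 2.16 and 1.85, and at 1.37 and 1.38 by its 3 probes. For both genes every probe lay more than 1.5-fold above 0 on each array. phlda3, an inhibitor of Akt signalling, stood at 3.06 on replicate 1 and 1.14 on replicate 2, with values shared by at most 6 probes. sesn3, a sestrin of the stress response, had log2 ratios of 1.54 and 1.20. casp8, the initiator caspase of the death receptor pathway, lay at 0.83 and 0.57, which did not reach 1.5-fold on replicate 2 and was chosen after its values were seen.

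In the fit over all 7 arrays the adjusted p was 0.448 for mdm2, 0.557 for ccng1, 0.530 for phlda3 and 0.584 for sesn3 (limma). In the fit of the 30 hpf arrays alone over values found once, limma called mdm2 (adjusted p = 9.92e-04), ccng1 (adjusted p = 0.00198) and sesn3 (adjusted p = 0.00726) higher, while 4.14% of the 724 genes named through the 24 or 48 hpf lists were called higher in that fit. Of 9 genes on the list of growth arrest and apoptosis that were named through the 24 or 48 hpf lists and are reported here, 4 were at least 1.5-fold higher on both arrays and 1 was lower. Among all 2452 genes so named, 4.16% were higher and 10.5% lower. The median of the list was a log2 ratio of 0.70, against -0.13 over the 2452 genes.

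The direction followed the list through which a member was named. The 5 members above 0 on both arrays, mdm2, ccng1, phlda3, sesn3 and casp8, were all named through the 48 hpf list, where they were lower by construction. The 4 named through the 24 hpf list all lay below 0 on both arrays. Of these, gadd45gb.1, a stress gene of the GADD45 family that is also active in neural tissue, had log2 ratios of -1.77 and -2.57, and bcl2l10, an anti-apoptotic relative of bcl2, of -0.58 and -1.60. cdkn1bb, a cyclin-dependent kinase inhibitor, lay at -0.33 and -0.64, and casp6a, an executioner caspase, at -0.26 and -0.09. Of the 916 placed probes of the 48 hpf list, 8.62% were at least 1.5-fold higher and 7.21% lower on both 30 hpf arrays, and of 3328 probes of the 24 hpf list 4.3% were higher and 10.3% lower. A further 7 members, among them baxb and ccng2, were named through the 30 hpf list alone and were lower for that reason.

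At 48 hpf these genes lay on the other side of 0. For mdm2 the 24 hpf arrays gave 1.41 and 0.67, the 30 hpf arrays 2.08 and 1.78, and the 48 hpf arrays -1.70, -2.22 and -2.55. At 24 hpf ccng1 lay at 1.65 on replicate 1 and below 0 on replicate 2, with a mean of 0.32 ± 1.87 (SD, n = 2). On that replicate 2 its 3 probes gave 1.69, -6.99 and 2.29, so the side there rested on 1 probe. On the 3 arrays at 48 hpf ccng1 lay at -1.81, -2.35 and -1.80. The 48 hpf values chose these genes, so the test of 30 against 48 hpf, run over all features, is not quoted for them. By the array names in the lists, the 30 hpf arrays shared a leading number, read here as a day, with 24 hpf replicate 1. On that array mdm2 and ccng1 were also above 0 (1.41 and 1.65). The names do not say what was done on that day. The other 24 hpf array and all 48 hpf arrays carried another day. The fit over all 7 arrays was repeated with day as a block, where the 24 hpf arrays alone separate day from stage. It takes a part of the difference between the 24 hpf arrays off the 30 hpf mean. The value tested is thus not the 30 hpf ratio alone. The adjusted p was then 0.265 for mdm2, 0.722 for ccng1, 0.462 for phlda3 and 0.169 for sesn3 (limma). For ccng1 that fit took in the probe at -6.99.

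**Figure D2:**
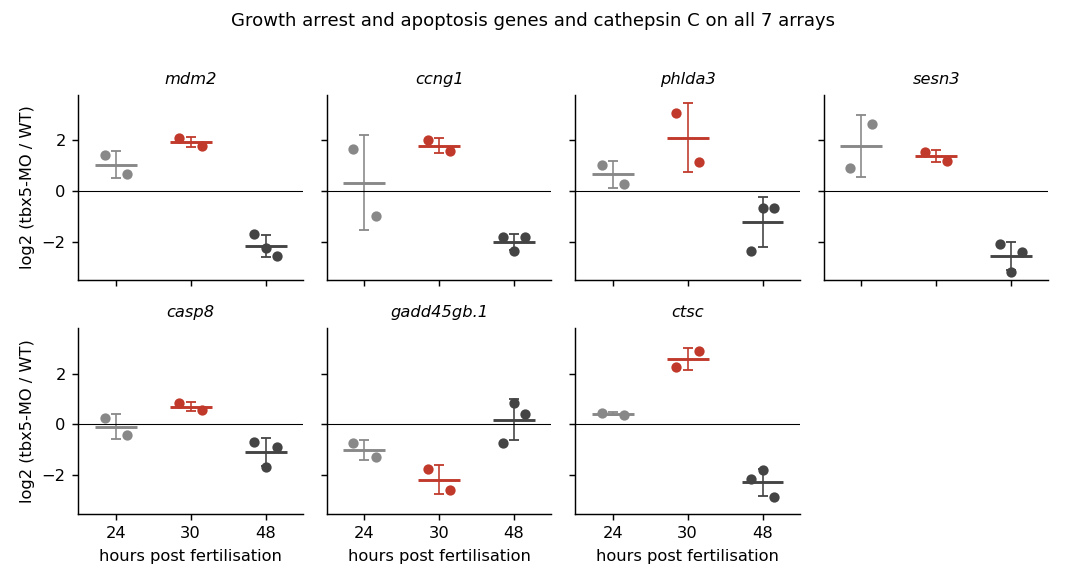
Log2 ratios of tbx5-MO over WT on each of the 7 arrays for 5 genes of the growth arrest and apoptosis list that were above 0 at 30 hpf, gadd45gb.1 and ctsc. Points are arrays, lines the stage mean and bars the SD. At 30 hpf both arrays lay above 0 for every gene shown except gadd45gb.1 (-1.77 and -2.57). The 48 hpf values of all but gadd45gb.1 were those that gave the genes their names.

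Other genes with higher ratios included proteases, basement membrane and nuclear proteins. ctsc (chromosome 15), cathepsin C, a lysosomal protease that activates granule serine proteases, had log2 ratios of 2.91 and 3.17 by one probe and of 1.62 and 2.58 by the other. Its mean was 2.57 ± 0.43 (SD, n = 2), a fold of 5.94, with an adjusted p of 0.403 over all 7 arrays and of 3.63e-04 in the fit of the 30 hpf arrays alone (limma). ctss2.1, a cathepsin S gene of the kind used by phagocytes, stood at 7.53 on replicate 1 and 0.78 on replicate 2. The 2 arrays thus differed widely on its size, though not on its side. Of 16 cathepsins and peptidases named through the other stages' lists, 4 (25.0%) were at least 1.5-fold higher and 0 lower. Among all 2452 genes so named, 4.16% were higher and 10.5% lower. The median of the 16 was -0.20, with 8 below 0 and 5 above 0 on both arrays. Besides ctsc and ctss2.1, the 4 held mmp30, a matrix metalloproteinase, at 1.19 and 1.36, and mmp2, gelatinase A, at 0.63 and 0.68. All of the 4 but mmp30 were named through the 48 hpf list, of whose probes 8.62% were higher and 7.21% lower.

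White blood cell markers did not share this direction as a list, but most had values that several probes shared. Only 1 of the 7, ctss2.1, had values found once on both arrays. Values of il1b were shared by 6 probes, of lcp1 by 37, of mmp9 by 41 and of mmp13a by 60. Of 7 on that list, ctss2.1 alone was past 1.5-fold higher on both arrays and 0 were lower, and the median was -0.09. lcp1, the leukocyte plastin, lay at -0.11 and 1.41. il1b, a cytokine of macrophages, lay at 0.81 and -2.05.

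Matrix genes lay on both sides. nid2, nidogen 2 of the basement membrane, which the matrix list does not hold, had log2 ratios of 1.47 and 1.65. lama1, the laminin alpha 1 chain, averaged 1.24 ± 0.37 (SD, n = 2) and was chosen after its values were seen. In the fit of the 30 hpf arrays alone limma called both higher (adjusted p = 0.00351 for nid2 and 0.0136 for lama1), and over all 7 arrays it did not (adjusted p = 0.627 and 0.544). col1a1a and col1a2, chains of type I collagen, lay at -1.51 and -1.62 and at -1.02 and -1.25, by probes named through the 24 hpf list. Other basement membrane genes, named through the 30 hpf list alone, were lower by that choice, with agrn, agrin, at -1.01 and -1.08. Of 18 collagen and matrix genes named through the other stages' lists, 2 were lower and 2 higher at 1.5-fold, and the median was -0.12.

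Some other single genes lay higher, with no common group tested. cpsf6, a subunit of the mRNA cleavage complex, lay at 1.83 and 1.77 by one probe and at 1.21 and 2.41 by the other. rad23b, which recognises damaged DNA and carries ubiquitylated proteins, lay at 1.97 and 1.73. cad and umps, enzymes of pyrimidine synthesis, averaged 1.17 ± 0.68 and 0.77 ± 0.03 (SD, n = 2 each). The probes of cad differed, at 0.14 and 1.57 by one and at 1.25 and 1.74 by the other. pfas, of purine synthesis, lay at 1.03 and 0.80. atic, also of purine synthesis, lay at -0.70 and -1.10. cad, umps and pfas, with ssr1 and nat10, were chosen after their values were seen. ssr1, a subunit of the translocon complex of the endoplasmic reticulum, lay at 1.03 and 0.94 by one probe and at 1.33 and 1.13 by the other, and stt3a, an oligosaccharyltransferase, at 1.03 and 1.03. nat10, an RNA acetyltransferase of the nucleolus, lay at 0.72 and 0.90. Of the 34 heat shock and unfolded protein response genes named through the other stages' lists, 1 was higher and 3 were lower at 1.5-fold, with a median of -0.09.

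wt1a, a zinc finger factor of the kidney and the epicardium, had log2 ratios of 1.64 and 1.26 with values found once (adjusted p = 0.462, limma). gata5, a zinc finger factor of the early heart field and endoderm, lay at 1.05 and 0.65, and was chosen after its values were seen. Among named genes with values shared by at most 10 probes and past 1.5-fold on both arrays, LOC571509 had the largest mean, at 9.11 on replicate 1 and 0.94 on replicate 2. That value rested on replicate 1, as did sf3a2, a splicing factor, at 8.97 and 0.56.

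Genes of fast muscle were the group with the most members at lower ratios. Of 34 named through the 24 or 48 hpf lists, 24 (70.6%) were at least 1.5-fold lower on both arrays and 0 were higher, against 10.5% and 4.16% of all 2452 genes so named. The median log2 ratio was -1.48. pvalb1 (chromosome 3), a parvalbumin that buffers calcium and speeds relaxation, had log2 ratios of -3.01 and -3.07, a fold of 8.21 in the mean. The 2 arrays gave nearly the same value. In limma over all 7 arrays it had an adjusted p of 0.263, and in alternatives one of 0.0461 where values shared by more than 10 probes on any array were left out, and of 1.36e-04 in the fit of the 30 hpf arrays alone over values found once.

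Regulators of the thin filament were among the members with low ratios. tnnt3b, fast troponin T, lay at -2.67 and -3.50 by one probe and at -2.74 and -2.97 by the other. tnnt3a, its paralogue, lay at -2.70 and -2.69, and Tnni2, listed as fast troponin I and not counted in the list, at -2.57 and -3.74. tpma, an alpha tropomyosin, had log2 ratios of -1.99 and -2.32. These regulators of contraction were all more than 1.5-fold lower on each array.

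Genes of the motor, the calcium store and the energy supply lay below 0 as well. mylpfa and myl1, light chains of fast myosin, lay at -1.98 and -1.92 and at -1.46 and -1.59. atp2a1, the calcium pump of the sarcoplasmic reticulum, lay at -1.51 and -1.39, and trdn, the triadin of the same store, at -0.78 and -4.17. ckmb, a muscle creatine kinase, lay at -1.52 and -1.45. The actins were less alike. acta1b, a skeletal actin, lay at -1.46 and -1.09, but acta1a, the paralogue, at -0.15 and 0.18. The chaperone and assembly genes unc45b and smyd1b, which fold and place myosin, lay at -0.20 and -0.17 and at -0.54 and -0.48, none past 1.5-fold. Their relative on the list did not follow, with smyd1a at -1.60 and -1.79 by its probe of the 24 hpf list.

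Genes of slow muscle stood closer to 0. Of 6 named through the other stages' lists, 1 was at least 1.5-fold lower and 0 higher, and the median was -0.45. myl13 and smyhc1, a light and a heavy chain of slow myosin, lay at -0.51 and -0.53 and at -0.38 and -0.36. myl10, another light chain, lay at -0.94 and -1.15. All 3 were named through the 48 hpf list. Fast muscle genes also differed by the list that named them. The 27 named through the 24 and not the 48 hpf list had a median of -1.53. The 6 named through the 48 and not the 24 hpf list had one of -0.42, close to that of the slow list. The difference between the fast and the slow list was not tested. In the fit of the 30 hpf arrays alone, limma called 21 of 29 fast muscle genes and 1 of 4 slow muscle genes with values found once lower, against 14.5% of 724 genes named through those lists.

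**Figure D3:**
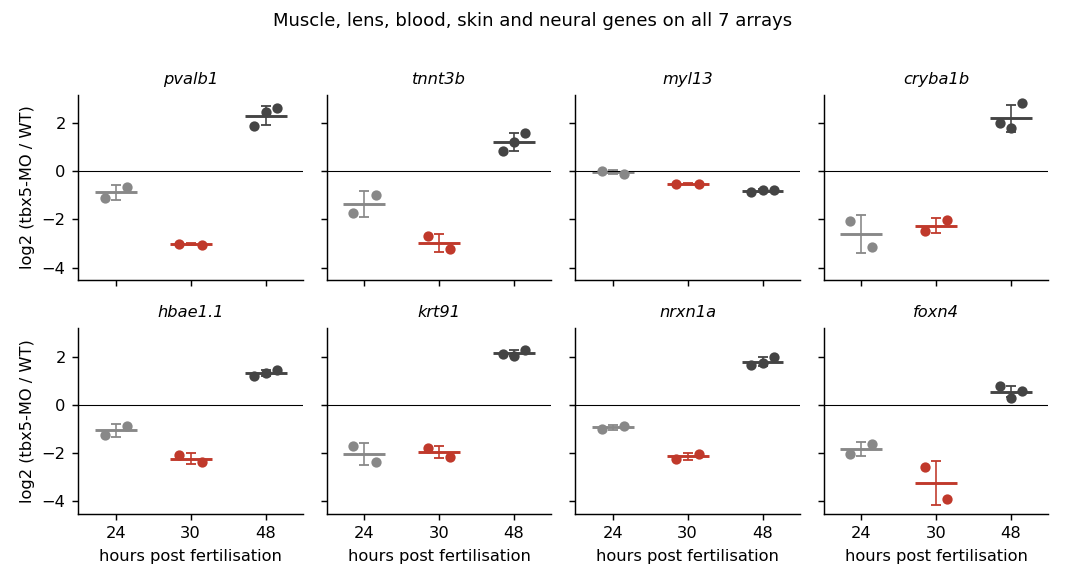
Log2 ratios of tbx5-MO over WT on each of the 7 arrays for 3 muscle genes (pvalb1, tnnt3b and the slow myosin light chain myl13), a lens crystallin (cryba1b), an embryonic globin (hbae1.1), a keratin (krt91) and 2 neural genes (nrxn1a, foxn4). Points are arrays, lines the stage mean and bars the SD. At 30 hpf every array lay below 0, while at 48 hpf all genes but myl13 lay above 0 on every array.

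Crystallins lay lower on both arrays where few probes shared their values. Of 8 lens genes, not all of them crystallins, named through the other stages' lists, 4 were at least 1.5-fold lower and 0 higher. The median of the 8 was -1.69. cryba1b, a beta crystallin that gives the lens its refractive protein, had log2 ratios of -2.47 and -2.04, and cryba4, another, of -2.23 and -3.86 by the probe named through the 24 hpf list. The other 2 were crybb1, with -1.66 and -2.53 and with -1.93 and -1.95 by its 2 probes of the 24 hpf list, and cryba2a. The 4 members not past 1.5-fold on both arrays had values that 15 to 110 probes shared, as mipb (-0.82 and -0.15), a lens water channel, did.

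Neuronal genes lay mostly on the same side, and some differed widely between the arrays. Of 13 named through the other stages' lists, 6 were at least 1.5-fold lower and 0 higher, and the median was -0.92. nrxn1a, neurexin 1, a presynaptic adhesion protein, had log2 ratios of -2.25 and -2.05, with an adjusted p of 0.403 over all 7 arrays and of 0.0461 without values shared by more than 10 probes (limma). elavl4, an RNA-binding protein of young neurons, lay at -0.63 and -3.96, and stmn1b, a regulator of microtubules, at -0.88 and -2.32. lrrn1, a neuronal leucine-rich repeat protein, lay at -0.66 and -1.32, at -1.56 and -1.95 and at -7.45 and -1.71 by its 3 probes. Its mean thus rested on 1 probe of replicate 1. Not all neuronal genes were lower, since mapta, the microtubule protein tau, lay at 0.06 and 0.50. Of the genes named through the 30 hpf list alone, onecut1, a homeodomain factor of motor neurons and retina, had the log2 ratios -4.95 and -3.23.

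foxn4, a forkhead factor of progenitors of the retina, spinal cord and atrioventricular canal, had log2 ratios of -2.60 and -3.91. Its adjusted p was 0.301 over all 7 arrays and 0.0461 without values shared by more than 10 probes (limma). sox11a, a factor of differentiating neurons, lay at -1.20 and -2.74. Notch signalling keeps neural progenitors from differentiating. Of its hairy-related genes, her15.2 lay at -2.04 and -2.25 and her4.5 at -1.19 and -3.34, but her11 at 0.63 and -1.50. Of 7 neural progenitor genes 1 was lower and 0 higher, with a median of -0.14. Of 6 retina genes 0 were lower or higher, with a median of 0.13, but only 1 of the 6 had values found once on both arrays. The whole group of Wnt, BMP, Hedgehog and Notch genes had 3 of 23 (13.0%) lower and 0 higher, and the median was -0.11. The receptor notch2 lay at 0.51 and 0.92. Of 53 homeobox, Sox, T-box and GATA factors, 5 (9.43%) were lower and 2 (3.77%) higher, with a median of -0.26. Both groups had shares of lower genes near the 10.5% of all 2452 genes named through the 24 or 48 hpf lists. Values found once on both arrays were held by 6 of the 23 and 12 of the 53.

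Among red blood cell genes named through the other stages' lists, 2 globins had the lowest ratios. hbae1.1, an embryonic alpha globin, had log2 ratios of -2.09 and -2.40, a fold of 4.73, and hbae3, another, of -1.67 and -1.78 and of -2.04 and -2.62 by its 2 probes. limma gave hbae1.1 an adjusted p of 0.403 over all 7 arrays, 0.0461 without values shared by more than 10 probes, and 0.0188 over values found once on every array. slc4a1a, the anion exchanger of the red cell membrane, lay at -1.31 and -1.10. Haem synthesis was closer to 0, with urod, its decarboxylase, at -0.51 and -0.45. Of 10 red cell genes named through the other stages' lists, 4 were at least 1.5-fold lower and 0 higher, and the median was -0.55. The 4 include tmod4, a capper of actin filaments that the fast muscle list holds as well.

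In the skin, krt91, a keratin, had log2 ratios of -1.80 and -2.16, and aqp3a, a water channel, of -1.05 and -1.93. krt1-19e, another keratin, lay at -1.76 and -1.73 by its probe of the 24 hpf list. The keratins were not alike, since krt8 lay at 0.04 and -0.30 and krt92 at 0.92 and 0.55, with values found once on each array. Of 16 epidermal genes named through the other stages' lists 5 were lower, 0 higher, and the median was -0.07. Of 6 pigment cell genes, 2 were lower and 0 higher, with a median of -0.42. gch2, which makes the pteridine pigment of xanthophores, lay at -1.48 and -1.89 by its probe of the 24 hpf list. mitfa, the master regulator of melanophores, lay at -0.24 and -0.79. Of 11 liver and yolk genes 2 were lower and 0 higher, with a median of -0.48.

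Transcripts of the cytosolic ribosome lay lower with small and even ratios. All 13 named through the other stages' lists were below 0 on both arrays, 9 of them (69.2%) by at least 1.5-fold, and their mean log2 ratios ranged from -1.17 to -0.49 with a median of -0.85. rpl36a lay at -0.99 and -1.36 and rps24 at -1.04 and -1.29. All of the 13 but rpl31 lay farther below 0 on replicate 2 than on replicate 1. In the fit of the 30 hpf arrays alone, chosen after seeing the data, limma called 7 of 12 with values found once lower. Of the 724 genes named through those lists, 14.5% were called lower in that fit. Translation factors and tRNA synthetases did not lie with the ribosomal transcripts, as 2 of 33 were lower, 1 higher and the median was 0.05. Nor did the 33 splicing and hnRNP genes, with 1 lower, 1 higher and a median of -0.03. In oxidative phosphorylation 4 of 18 were lower, 1 was higher and the median was -0.44. ndufb11, a subunit of complex I, lay at -0.65 and -1.47, and ndufs1, its largest, at 0.35 and 0.04.

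**Figure D4:**
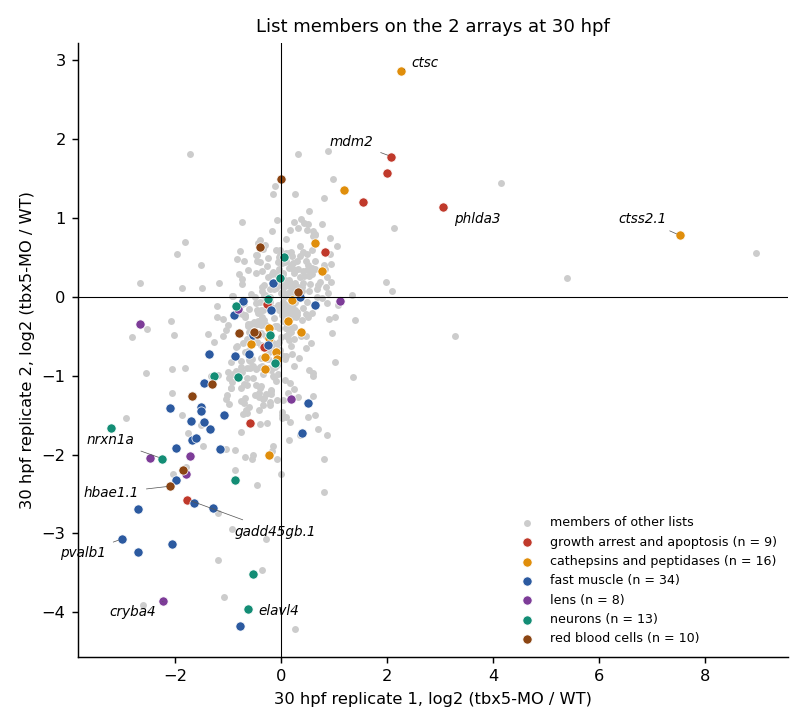
Log2 ratios of tbx5-MO over WT on the 2 arrays at 30 hpf, for members of the gene lists named through the 24 or 48 hpf lists (one point per gene, mean of its probes). Most fast muscle genes lie below 0 on both axes, down to pvalb1 at -3.01 and -3.07, and mdm2 and ctsc lie above 0 on both axes, while ctss2.1 lies far out on replicate 1 alone.

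The heart and the pectoral fin, where tbx5 acts, gave few measured genes. Of 5 heart genes named through the other stages' lists, 1 was at least 1.5-fold lower and 1 higher. tnnt2c, a cardiac type troponin T, lay at -0.99 and -1.03, and gata6, a heart and endoderm factor, at 0.26 and 0.10. tbx2b, a T-box factor of the atrioventricular canal, lay at -1.38 and -0.47. The median of the 5 was 0.17, and only 2 of the 5 had values found once on both arrays. Another 7 heart genes were named through the 30 hpf list alone and are lower by that choice. They include tnnt2a, cardiac troponin T, at -0.77 and -2.50, cmlc1, an atrial and ventricular myosin light chain, at -0.61 and -0.84, and nkx2.7, a cardiac homeodomain factor, at -1.20 and -0.83. The values of tnnt2a and nkx2.7 were shared by 31 and 40 probes.

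Of 8 genes of the pectoral fin and limb field named through the other stages' lists, 1 was lower (sall1a, a zinc finger factor, at -0.68 and -0.70), 0 were higher, and the median was -0.50. That is 12.5% lower, near the 10.5% of all 2452 genes so named. Of the 8, 0 had values found once on both arrays. aldh1a2, which makes retinoic acid, lay at -0.49 and -0.50, and shha, the hedgehog ligand of the fin bud, at 0.68 and close to 0. From the 30 hpf list alone came and3, an actinodin of the fin fold, at -0.66 and -3.30, dlx5a, a homeodomain factor of the fin fold, at -1.17 and -3.19, and msx1b, another, at -0.75 and -2.29. tbx15, a T-box factor, lay at -1.92 and -2.03 with a value that 46 probes shared.

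Growth factors formed no common direction, but few of them had values found once on both arrays. Among the growth genes that the study took from these arrays, gh1, growth hormone, had log2 ratios of -1.27 and -0.69, pdgfab, a platelet-derived growth factor, of -0.88 and -2.24, fgf6a of -1.36 and -1.23, and fgf1a of -0.61 and -1.83. All 4 were named through the 30 hpf list, so their side was given. A value of gh1 was shared by 212 probes, of pdgfab by 78, of fgf1a by 58 and of fgf6a by 49, and the adjusted p over all 7 arrays was 0.650, 0.584, 0.579 and 0.509 (limma). vegfab, a vascular endothelial growth factor, lay at -1.98 and -1.41 in the list, but its values fitted 2 probes of the table, so it entered no test. Of 8 genes on the list of growth hormone and IGF signalling with names from the other stages, 0 were past 1.5-fold in either direction, and the median was -0.35. Only 1 of the 8 had values found once on both arrays. ghra, the growth hormone receptor, lay at -0.21 and -0.06, stat5b, its transducer, at -0.29 and -0.49, and irs1, an insulin receptor substrate, averaged 0.78 ± 0.73 (SD, n = 2). A value of stat5b was shared by 247 probes.

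Feedback inhibitors of FGF signalling lay on both sides of 0. spry1, a sprouty that dampens receptor signalling, had log2 ratios of -1.88 and -1.50 with values found once (adjusted p = 0.462 over all 7 arrays and 0.00252 in the fit of the 30 hpf arrays alone, limma). spred2b, of a related family, lay at -2.93 and -1.53, with a value that 18 probes shared. Their relatives did not follow, with spry2 at 0.42 and 0.17 and spred2a at 0.42 and 0.57. Of all 17 genes of FGF, VEGF, PDGF and midkine signalling named through the other stages' lists, 4 were lower and 1 higher, and the median was 0.04. Only 3 of the 17 had values found once on both arrays.

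**Figure D5:**
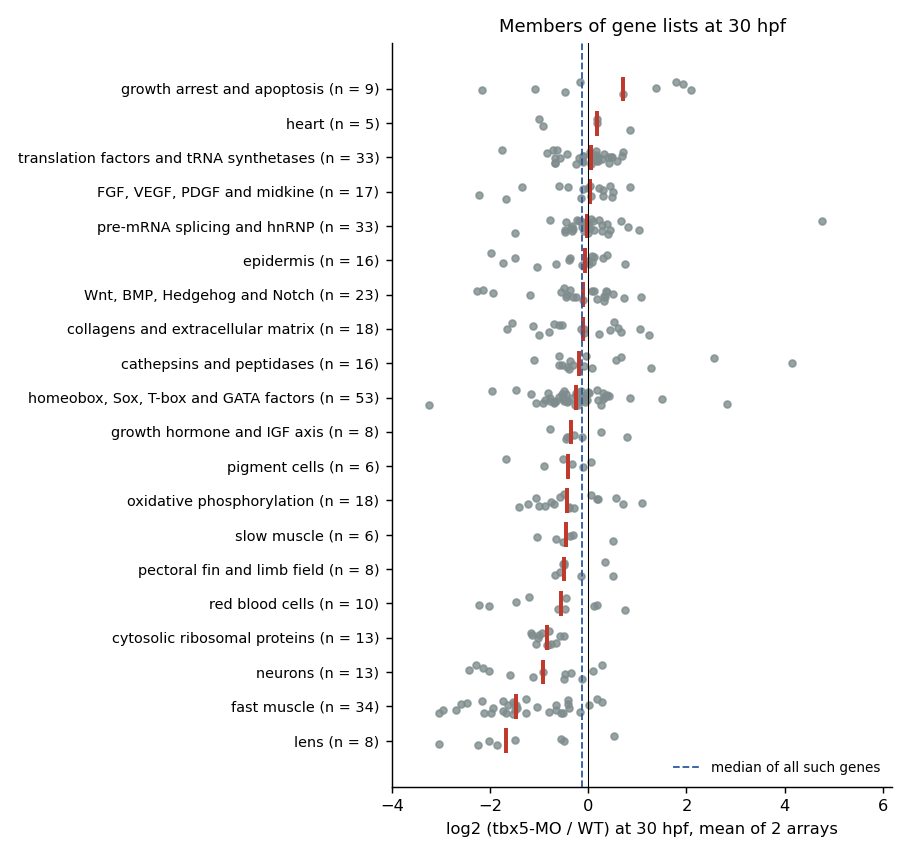
Mean log2 ratio of tbx5-MO over WT over the 2 arrays at 30 hpf for members of 20 gene lists, named through the 24 or 48 hpf lists. Points are genes, the red bar is the median of the list and the dashed line the median of all 2452 genes so named (-0.13). The growth arrest and apoptosis list has the highest median of those shown (0.70), and the lens (-1.69) and fast muscle (-1.48) lists the lowest.

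Against the other stages, the limma fit over all 7 arrays called 1 probe (0.00232%) different between 30 and 24 hpf and 0 between 30 and 48 hpf, where 3108 features had an unadjusted p under 0.05. The probe had no name. Its log2 ratios were 0.05 and 0.11 at 30 hpf and 8.38 and 8.88 at 24 hpf, a difference of -8.55 (adjusted p = 0.047, limma). Where values shared by more than 10 probes on any array were left out, 59 of 6761 features (0.873%) differed between 30 and 48 hpf. Of the 59, 43 were lower and 16 higher at 30 hpf. The balance turned over values found once on every array, where 157 of 1909 features (8.22%) differed, 63 lower and 94 higher at 30 hpf. Genes whose names came through the 24 hpf list were among the 59. pvalb1 differed by -5.35 (adjusted p = 0.00551), with -3.01 and -3.07 at 30 hpf against 1.87, 2.45 and 2.62 at 48 hpf. krt91 differed by -4.11 (adjusted p = 0.00739) and hbae1.1 by -3.55 (adjusted p = 0.00765, limma). No array of one stage overlapped with one of the other for these 3 genes. They were taken from the features called on these same arrays, so this is no separate evidence. The 30 and the 48 hpf arrays carried different days in their names, and only the 24 hpf arrays, 1 on each day, separate day from stage. With day as a block, the fit takes the difference between the 24 hpf arrays off the difference between 30 and 48 hpf. limma then called 808 features, 581 lower and 227 higher at 30 hpf. The 24 hpf arrays correlated with each other at only 0.20 over values found once on every array. This count therefore cannot tell a difference between stages from a disagreement of the 24 hpf arrays. Across 1972 probes with values found once on each of the 7 arrays, the correlation of the 30 hpf arrays was 0.69 with each other, at 0.30 and 0.40 with 24 hpf replicate 1, at -0.01 and -0.05 with 24 hpf replicate 2, and between -0.28 and 0.02 with the 48 hpf arrays. The dyes are labelled alike at all stages, and the direction given here rests on them and on the negative values of the authors' lists.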

How the data were processed

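The authors labelled morphant cDNA with Cy5 and WT cDNA with Cy3, hybridised Agilent zebrafish arrays and scanned these on a GenePix instrument. The values deposited by the authors are log2 ratios, 1 for each probe on each array, normalized with GeneSpring GX. No source used here gives the steps of that normalization or the genome build, and spot intensities were not used here. The deposited lists of lower probes held log2 ratios to 5 decimals with gene names. Of 6740 probes listed, 6662 matched 1 probe of the value table, 4278 of them carried a symbol, and 3928 were matched by Entrez number in the RefSeq gene table, which replaced 2038 symbols. Named probes of a gene were averaged. limma 3.58.1 in R 4.3.3 fitted 1 mean per stage to all 7 arrays, tested the 30 hpf mean against 0 and its difference from each other stage, and adjusted over all 43179 features (Benjamini-Hochberg). Fold counts carry no test. Those of a list are to be read against the 10.5% lower and 4.16% higher among all 2452 genes named through the 24 or 48 hpf lists. Gene lists (41) are described by counts and medians over genes named through the 24 or 48 hpf lists.

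Genes named in the text are those with the lowest and highest means among genes past 1.5-fold on both arrays with values shared by at most 10 probes (up to 15 in each direction, and up to 10 from the 30 hpf list alone), up to 6 members of a list, the study's 30 hpf genes, members of a list set against these, and those said to be chosen after their values were seen. Where members set against the leading ones are named, their values had been seen. The comparison, the lists and the rule were chosen with earlier results of these data known. 1 gene is not reported here and was left out of its list. An RNA-editing enzyme that a name pattern had put in the liver list was taken out of it. Alternatives were other scalings, robust moderation, and replicate number or the day read from the array names as a block. Others were other averages of probes, limits on shared values and each array left out. The fit was also run on simulated normal noise, drawn independently for each probe. That noise held no shared values and no effect of day, so it is no check of the fit under these. Figures were drawn with matplotlib 3.10.9. No sequences are printed, as the tables used here hold none.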

Additional observations from a re-analysis of the deposited data

Results flagged for a closer look

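1 unnamed probe differed between 30 and 24 hpf in the limma fit, by -8.55, with 0.05 and 0.11 at 30 hpf against 8.38 and 8.88 at 24 hpf, where 20 and 10 probes shared the 24 hpf values. For other results the difference between stages was not tested. These are lists whose median lay on one side on both 30 hpf arrays and on the other side on every array of another stage, taken over genes named through the list of the remaining stage. Against 48 hpf, the medians at 30 hpf were -1.53 for fast muscle (27 genes; 0.32 at 48 hpf), -1.69 for lens (8; 1.65), -0.92 for neurons (13; 0.64), -0.63 for red blood cells (9), -0.77 for liver and yolk (6; 0.29) and -0.51 for pigment cells (5; 0.22). For red blood cells the 48 hpf arrays had medians of 0.25, 0.36 and 0.17, but the median of the genes' means over these arrays was -0.01, on the same side as at 30 hpf. Over all 1825 genes so named the medians were -0.16 at 30 hpf and -0.08 at 48 hpf. Against 24 hpf, the medians at 30 hpf were -0.37 for liver and yolk (5 genes; 0.72 at 24 hpf), 0.01 for homeobox, Sox, T-box and GATA factors (8; -0.42) and 0.36 for solute carriers (7 genes, with -0.06 and -0.20 on the 24 hpf arrays, but 0.11, the same side as at 30 hpf, in the median of the genes' means).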

How the results depend on the processing

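The count of calls at 30 hpf stayed at 3 with median centring, robust moderation, the median of a gene's probes and single probes. It was 1 with the arrays scaled to 1 median absolute deviation. With the 30 hpf arrays alone it was 0, also without values shared by more than 10 probes on them. With the day read from the array names as a block it was 325. Over values shared by at most 10 probes or found once on every array it was 6 and 18. It was 598 in the added fit over values found once on the 30 hpf arrays, and 3538 at an unadjusted p under 0.05. The 325 had 230 lower and 95 higher. With each array left out it was 0 to 401, the 401 without 30 hpf replicate 2, where the lone array is assumed to vary like the other stages. For 30 against 24 hpf the 1 call became 0 with scaled arrays and with either limit on shared values, 962 with the day block, and 0 to 962 with an array left out (542 without 24 hpf replicate 1, 962 without its replicate 2, 257 without 30 hpf replicate 2). For 30 against 48 hpf the 0 calls became 808 with the day block, 59 and 157 with the limits, and 0 to 294 with an array left out (294 without 30 hpf replicate 2). Replicate numbers did not pair the arrays (correlations of deviations -0.15, 0 and -0.10), and with the replicate block there were 0 calls at 30 hpf, 0 against 24 hpf and 0 against 48 hpf. For 30 against 24 hpf, the day block and the fit without 24 hpf replicate 2 are the same comparison, since the day term takes up that array. They are thus no separate alternatives. For 30 against 48 hpf the day block brings in the difference between the 24 hpf arrays. For the calls at 30 hpf it takes a part of that difference off the 30 hpf mean. The cause of the other changes was not tested.

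The 2949 lower and 2638 higher probes became 949 and 774 at 2-fold, 8228 and 7421 in the mean of the arrays, 1278 and 826 over values shared by at most 10 probes, and 547 and 345 over values found once. Either array alone gave 9691 to 10068 lower and 8749 to 9737 higher. The growth arrest and apoptosis median of 0.70 was 1.04 over values shared by at most 10 probes, and -0.83 with the members of the 30 hpf list, which are lower by construction. On either array alone it was 0.57 to 0.83. The fast muscle median was -1.36 to -1.48 and the lens median -1.76 to -1.66 on either array alone, and the lens median was -2.13 over values shared by at most 10 probes. Adding the 30 hpf list turned heart to -0.85, retina to -0.74, translation factors to -0.11, proteasome to -0.72 and FGF signalling to -0.28. Limiting shared values turned hatching gland to -0.57, Wnt to Notch signalling to 0.07 and sterol synthesis to 0.22, and centring turned the last to 0.01. On single arrays, proteasome lay at -0.05 and -0.04, Wnt to Notch signalling at 0.04 without replicate 2, solute carriers at 0.09 and 0.05, and sterol synthesis at 0.01 without replicate 1. No gene chosen by the naming rule or after its values were seen changed side with another scaling or the median of its probes. None did on either array alone, but the rule took only genes on the same side on both arrays. That outcome was thus fixed in advance and is no test. Genes set against the chosen ones can lie on opposite sides on the 2 arrays, as acta1a, krt8, lcp1 and il1b did.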

Other observations

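A few further values concern genes outside the groups above. slc16a7, a monocarboxylate transporter, had log2 ratios of 4.15 and 1.44 at 30 hpf with adjusted p = 0.462 (limma), with a value that 13 probes shared. Of 48 solute carriers named through the other stages' lists, 3 (6.25%) were at least 1.5-fold higher and 1 (2.08%) lower, with a median of -0.16. Among all 2452 genes so named, 4.16% were higher and 10.5% lower. Only 6 of the 48 had values found once on both arrays. aldoab, an aldolase of glycolysis in muscle, lay at -1.69 and -1.81, and uqcrb, a subunit of complex III from the 30 hpf list alone, at -1.60 and -1.65. Of notochord and hatching gland genes, 0 of 6 and 0 of 5 were past 1.5-fold in either direction, with medians of 0.22 and 0.03. The hatching enzyme genes he1.1 (-0.38 and -0.77) and he1.2 (-0.25 and -0.90) lay below 0 on both arrays, with values found once. klf17 and prdm1a, with values shared by 41 and 34 probes, lay above 0 on both. Of 14 DNA replication genes 2 were lower and 1 higher (median -0.20), and of 18 genes of mitosis 1 was lower and 0 were higher (median -0.22).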
